A study of Mus musculus with 8 samples.

Results

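The nuclear genes of the mitochondrial ribosome were followed in 8 RNA sequencing libraries of mouse bone marrow LSK cells. The genes were chosen by symbol, as Mrpl or Mrps followed by a number and at most 1 letter from a to d, and had to reach 1 FPKM in at least 2 libraries. FPKM are fragments per kilobase of transcript per 1000000 mapped fragments. Of 23284 gene symbols in the files, 76 had such a symbol, and all 76 met the level condition, so no gene of the family was lost to it. By symbol, 47 belong to the large subunit (Mrpl) and 29 to the small subunit (Mrps). Across the series, 11931 genes met the same level condition and were tested.

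Mitochondria carry their own ribosomes, which translate the few messages of mitochondrial DNA, all of them for core subunits of the respiratory chain and ATP synthase. The ribosomal RNA is made inside the organelle, while every ribosomal protein is encoded in the nucleus, made in the cytosol and imported. Many of these proteins have counterparts in bacteria, and others were added during the evolution of mitochondria. Haematopoietic stem cells are known for low reliance on respiration at rest, and their exit from quiescence comes with rising mitochondrial activity.

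LSK cells (Lineage-, Sca-1+, c-Kit+) are the marrow fraction that holds stem cells and multipotent progenitors. All mice were C57BL/6 males of 12 to 13 weeks from 1 supplier, and the labels name no genetic change. For 7 days each was given an intravenous injection after an overnight fast of more than 14 hours, with food allowed in the daytime. The injection was glucose (2 g/kg; libraries A and B), glucose with a 20% lipid emulsion (6 mL/kg; libraries H and I), or phosphate-buffered saline (PBS; libraries H, I, J and K). Marrow of femurs and tibias was taken on day 8, and each RNA extract was of about 10000 sorted cells. The series states that each treatment has its own PBS controls without saying which they are. PBS H and I share letters and a name tag with glucose plus lipid and were set against it, and PBS J and K were set against glucose. This matching was inferred from names, so each treatment was also set against the other PBS pair. The labels call the libraries biological replicates but do not say whether a library was 1 mouse or a pool. P-values therefore measure the spread between these libraries.

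Depth, estimated from the value of a single fragment, lay between 5.87 and 8.69 in units of 1000000 fragments. At the median level of the 76 genes this was about 358 to 526 fragments per kilobase of transcript, so counting error was small for most of them. The 6 transcripts used to mark the LSK gate, Ly6a, Kit, Cd34, Flt3, Procr and Slamf1, were detected in every library, at sums of 1155 to 1519 FPKM. Library H of glucose plus lipid stood apart. Its 10 neutrophil transcripts, led by S100a8 and S100a9, summed to 65917 FPKM, against 246 to 608 FPKM in the other 7 libraries. Its 6 erythroid transcripts summed to 1978 FPKM, with 1189.7 FPKM in library I of the same group and 273 to 618 FPKM in the other 6. Where glucose plus lipid enters a main comparison, family medians and counts at an unadjusted p under 0.05 are given with and without library H. So is the count of genes in which PBS J and K exceeded all other libraries. Counts by sign, other counts of groups that did not overlap, gene classes and other gene lists are given with library H only.

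The mitochondrial ribosomal genes ranged widely in level although most of their products are thought to enter each ribosome as a single copy. Among large subunit genes, Mrpl33, a counterpart of a bacterial protein, was the most abundant transcript at 344.0 to 427.8 FPKM. Mrpl42, specific to mitochondria, followed at 189.0 to 287.2 FPKM, then Mrpl28 at 149.5 to 234.6 FPKM. In the small subunit the order was led by Mrps18c, with 188.6 to 257.6 FPKM, Mrps16 and Mrps6. Mrpl42 exceeded Mrpl28 in every library but library H of glucose plus lipid, where they stood at 189.0 and 189.3 FPKM, and Mrps18c exceeded Mrps16 in all 8.

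**Figure D1:**
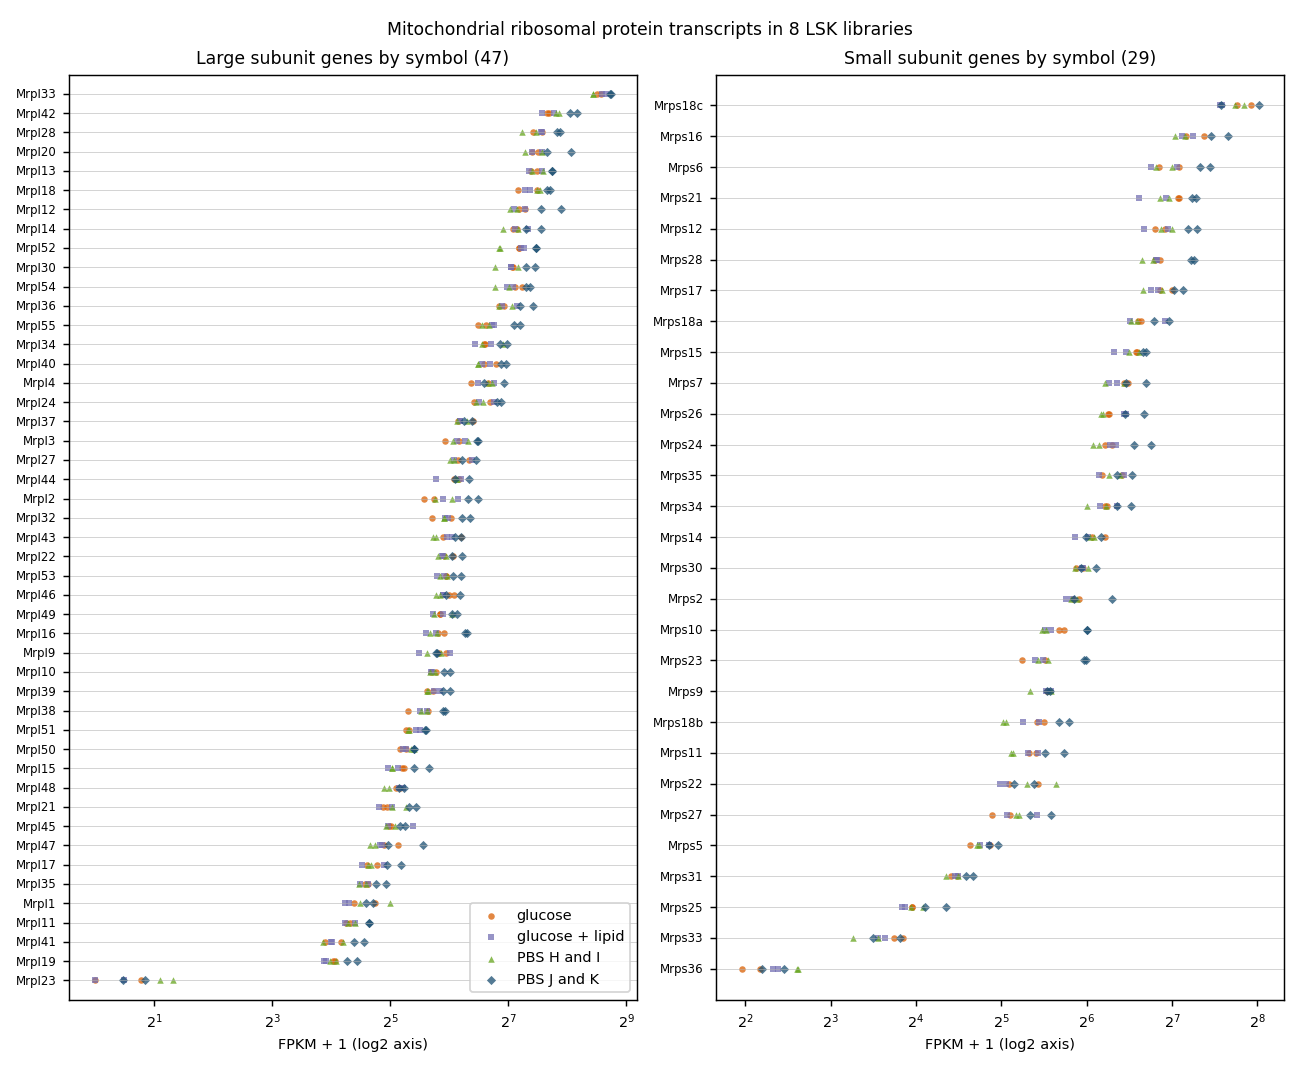
Level of each of the 76 transcripts in the 8 libraries. The x axis is FPKM + 1 on a log2 scale, rows are genes sorted by mean level, and each point is 1 library coloured by group. Most genes lie within a narrow band over the libraries, with PBS J and K (dark diamonds) usually at its right edge and Mrpl23 near 0.

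The lowest transcript was Mrpl23, listed at 0 and 0.728 FPKM after glucose, 0.413 and 0 after glucose plus lipid, 1.52 and 1.15 in PBS H and I, and 0.805 and 0.399 in PBS J and K. At these levels a gene of 1 kilobase rests on a handful of fragments, and its fold changes are not given singly. Mrpl23 does enter the medians and counts of the 76 genes. Mrps36 was the lowest small subunit symbol, at 2.90 to 5.15 FPKM; despite its name, its product is a component of the alpha-ketoglutarate dehydrogenase complex. Mrpl19 and Mrpl41 were next in the large subunit, with means of 16.1 and 16.8 FPKM over the 8 libraries, and Mrps33 and Mrps25 in the small subunit, with 11.3 and 15.2 FPKM. Coding length, 261 to 1326 bases with a median of 582, had a weak inverse relation to mean level across the 76 genes (Pearson r = -0.18, Spearman rho = -0.35), which are not independent samples.

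The genes lie on 17 chromosomes, 10 of them on chromosome 11. Nuclear genes of mitochondrial proteins are classically described with promoters that bind ETS family factors (GABPA), NRF1 and YY1. Windows from 250 bases before to 50 after the annotated start (RefSeq, GRCm38.p6) were given for 67 of the 76 genes and searched on both strands. The ETS-type motif CCGGAAG was present in 24 of the 67 genes (35.8%), against 20.7% of tested genes with a window and 9.93% of all genes with one. The NRF1-type motif was present in 12 genes (17.9%), against 11.9% and 5.19%. The YY1-type motif AAGATGGCG was present in 8 genes (11.9%), against 3.73% and 1.64%. Of 28 CCGGAAG matches in the first window of each gene, 25 began between 100 bases before the start and the window's end. In windows of all tested genes, 76.8% did. The 3 general promoter motifs are given beside these. CCAAT was found in 40.3% of the 67 genes, against 43.3% and 41.1%, TATAAA in 7.46%, against 8.43% and 15.7%, and CACGTG in 7.46%, against 12.2% and 8.09%.

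**Figure D2:**
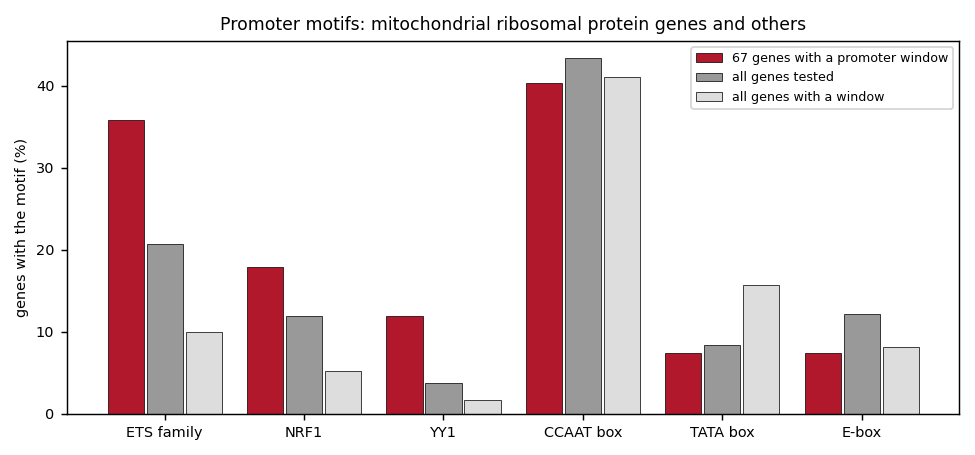
Share of genes with each motif in the promoter window. The y axis is the percentage of genes; red bars are the 67 mitochondrial ribosomal protein genes with a window, dark grey bars all tested genes and light grey bars all genes with a window. The red bar is the tallest for the ETS, NRF1 and YY1 motifs (35.8%, 17.9% and 11.9%) and not for the other 3.

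The following windows, 5′ to 3′ on the coding strand, belong to genes on which the comparisons turn or show how the 3 motifs combine; capitals mark matches to CCGGAAG, the NRF1-type motif or AAGATGGCG on either strand. Mrpl52 (chr14:54426659-54426958, plus strand) held 2 ETS-type matches. Mrps18b (chr17:35916391-35916690, minus strand) and Mrps12 (chr7:28741772-28742071, minus strand) held 1 each. Mrpl12 (chr11:120484387-120484686, plus strand) held 1 NRF1-type match. Mrps26 (chr2:130563507-130563806, plus strand) held 1 ETS-type match and 2 overlapping NRF1-type matches, and Mrps27 (chr13:99344536-99344835, plus strand) held 1 ETS-type and 1 YY1-type match. Mrpl55 (chr11:59202236-59202535, plus strand) held none of the 3. A match is a description of letters and not evidence of binding.
Mrpl52: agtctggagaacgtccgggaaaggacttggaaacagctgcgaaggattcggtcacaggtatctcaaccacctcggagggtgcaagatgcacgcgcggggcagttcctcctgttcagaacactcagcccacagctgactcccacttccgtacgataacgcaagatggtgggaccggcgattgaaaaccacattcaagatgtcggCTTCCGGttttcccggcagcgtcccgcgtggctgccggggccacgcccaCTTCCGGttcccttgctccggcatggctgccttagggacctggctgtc
Mrps18b: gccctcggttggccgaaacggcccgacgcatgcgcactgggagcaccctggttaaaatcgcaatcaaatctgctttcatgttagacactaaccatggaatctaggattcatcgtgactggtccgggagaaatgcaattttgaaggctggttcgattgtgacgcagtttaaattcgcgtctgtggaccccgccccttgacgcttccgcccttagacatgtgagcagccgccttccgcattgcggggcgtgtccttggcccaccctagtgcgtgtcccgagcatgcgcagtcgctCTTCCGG
Mrps12: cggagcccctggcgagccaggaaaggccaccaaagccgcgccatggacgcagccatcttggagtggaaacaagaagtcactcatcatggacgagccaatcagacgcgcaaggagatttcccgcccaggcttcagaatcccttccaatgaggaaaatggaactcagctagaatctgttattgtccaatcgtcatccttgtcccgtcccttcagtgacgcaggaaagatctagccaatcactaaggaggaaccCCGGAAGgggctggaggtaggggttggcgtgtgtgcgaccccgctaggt
Mrpl12: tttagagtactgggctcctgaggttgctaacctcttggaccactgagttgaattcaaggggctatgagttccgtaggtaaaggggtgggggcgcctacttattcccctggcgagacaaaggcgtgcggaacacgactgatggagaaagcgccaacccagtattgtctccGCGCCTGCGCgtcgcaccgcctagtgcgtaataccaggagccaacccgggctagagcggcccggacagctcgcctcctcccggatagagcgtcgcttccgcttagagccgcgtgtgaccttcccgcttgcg
Mrps26: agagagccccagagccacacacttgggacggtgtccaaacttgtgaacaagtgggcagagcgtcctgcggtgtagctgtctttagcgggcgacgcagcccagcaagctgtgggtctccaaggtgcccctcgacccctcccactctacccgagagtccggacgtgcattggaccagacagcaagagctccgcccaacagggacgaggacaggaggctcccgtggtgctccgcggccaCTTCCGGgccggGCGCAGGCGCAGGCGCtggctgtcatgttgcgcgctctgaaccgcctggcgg
Mrps27: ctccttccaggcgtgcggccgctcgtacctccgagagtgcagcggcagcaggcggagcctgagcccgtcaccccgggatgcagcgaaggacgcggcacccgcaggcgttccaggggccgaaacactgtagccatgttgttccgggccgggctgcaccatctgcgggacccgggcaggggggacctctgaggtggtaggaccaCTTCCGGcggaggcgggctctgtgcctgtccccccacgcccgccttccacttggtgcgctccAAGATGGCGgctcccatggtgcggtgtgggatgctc
Mrpl55: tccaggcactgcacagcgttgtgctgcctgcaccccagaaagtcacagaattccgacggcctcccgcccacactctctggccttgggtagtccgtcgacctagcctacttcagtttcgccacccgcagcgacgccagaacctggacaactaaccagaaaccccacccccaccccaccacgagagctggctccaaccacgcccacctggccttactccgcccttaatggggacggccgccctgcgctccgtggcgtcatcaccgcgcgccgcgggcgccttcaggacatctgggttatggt

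In 16 of the 76 genes (21.1%) a protein-coding gene on the opposite strand started at most 500 bases upstream and ran the other way. The same held for 1027 of 10319 tested protein-coding genes (9.95%). Pairs that overlap at their starts, such as Mrpl46 and Mrps11, were not counted. Mrpl49 starts 59 bases from Fau, which encodes a cytosolic ribosomal protein fused to a ubiquitin-like protein, and Mrps12 starts 172 bases from Sars2, the mitochondrial seryl-tRNA synthetase. Mrpl32 starts 75 bases from the proteasome gene Psma2, and Mrps18b 45 bases from Ppp1r10. Exons of 27 of the 76 genes shared bases with a gene on the opposite strand in GENCODE vM21, 20 of them with a protein-coding gene. Mrpl46 and Mrps11 overlap each other. Mrpl12, Mrpl13, Mrpl18, Mrpl21, Mrpl47 and Mrps18b are among the 27. Exons of 8 genes shared bases with another gene on the same strand, among them Mrpl33, Mrps18c and Mrps6. The library kit is not stated to keep strand, so fragments in shared bases could not be assigned by strand.

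The glucose comparison asks what repeated glucose alone does to LSK transcripts. With PBS J and K as controls, nearly all mitochondrial ribosomal genes were lower after glucose, by a similar small amount. The median log2 fold change, taken on log2(FPKM + 1), was -0.29 for the 47 large subunit genes and -0.21 for the 29 small subunit genes, against -0.00 for all genes tested. Of the 76 genes, 72 had a fold change below 0 (46 large, 26 small), against 50.0% of all genes, or 57.4% of those with a mean of 10 FPKM or more. No single gene passed: limma called 0 of 76 genes in either direction at an adjusted p under 0.05, where it called 0.00838% of all genes lower and 0.0922% higher. Without the mean-variance trend, limma also called 0. All 9 tested neutrophil transcripts lay below 0 as well, with a median of -0.78 and 0 called by limma. They summed with Mmp8 to 245.5 and 420.5 FPKM after glucose, against 608.0 and 375.9 FPKM in PBS J and K, so the groups overlapped, and Retnlg was at 0 in glucose B. Of the 6 erythroid transcripts, 4 lay above 0, while the beta globin transcripts Hbb-b1 (-0.49) and Hbb-b2 (-5.17) lay below. The erythroid sums were 273.2 and 293.8 FPKM after glucose, against 545.5 and 275.4 FPKM in PBS J and K, so these groups overlapped too. The part of these cells in the result was not tested.

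At an unadjusted p under 0.05, 34 of the 76 genes were lower (24 large, 10 small) and 0 higher, against 8.44% of all genes lower and 6.41% higher, or 12.2% and 6.47% of genes with a mean of 10 FPKM or more. Both glucose libraries lay below both of PBS J and K in 54 genes (35 large, 19 small), against 24.8% of all genes. They lay above in 1 gene, Mrpl9, against 22.3% of all genes. The count of 34 was 10 when libraries were rescaled to the sum of FPKM without small RNAs (4.07% of all genes lower). It was 17 without glucose A (5.83%), 21 without glucose B (4.88%) and 19 without PBS J (3.80%).

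The 4 genes chosen by the naming rule had the largest separated differences. Mrpl55, the counterpart of a bacterial large subunit protein, stood at 97.7 and 88.3 FPKM in glucose A and B, 104.6 and 107.9 in glucose plus lipid H and I, 92.9 and 101.5 in PBS H and I, and 146.3 and 136.5 in PBS J and K. Both glucose values were below both J and K values and overlapped those of PBS H and I. The log2 fold change against PBS J and K was -0.60 ± 0.10 (SE, adjusted p = 0.111), the smallest adjusted p among the 76 genes. Mrpl2, the counterpart of a bacterial protein next to the peptidyl transferase centre, averaged 49.6 ± 4.12 FPKM after glucose, against 84.1 ± 7.08 FPKM in PBS J and K (SD, n = 2 each), a log2 fold change of -0.75 ± 0.15 (adjusted p = 0.159). Its values were 46.7 and 52.5 FPKM after glucose, 58.6 and 69.9 after glucose plus lipid, 65.2 and 53.1 in PBS H and I, and 89.1 and 79.1 in PBS J and K, so glucose was the lowest group and did not overlap any other.

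**Figure D3:**
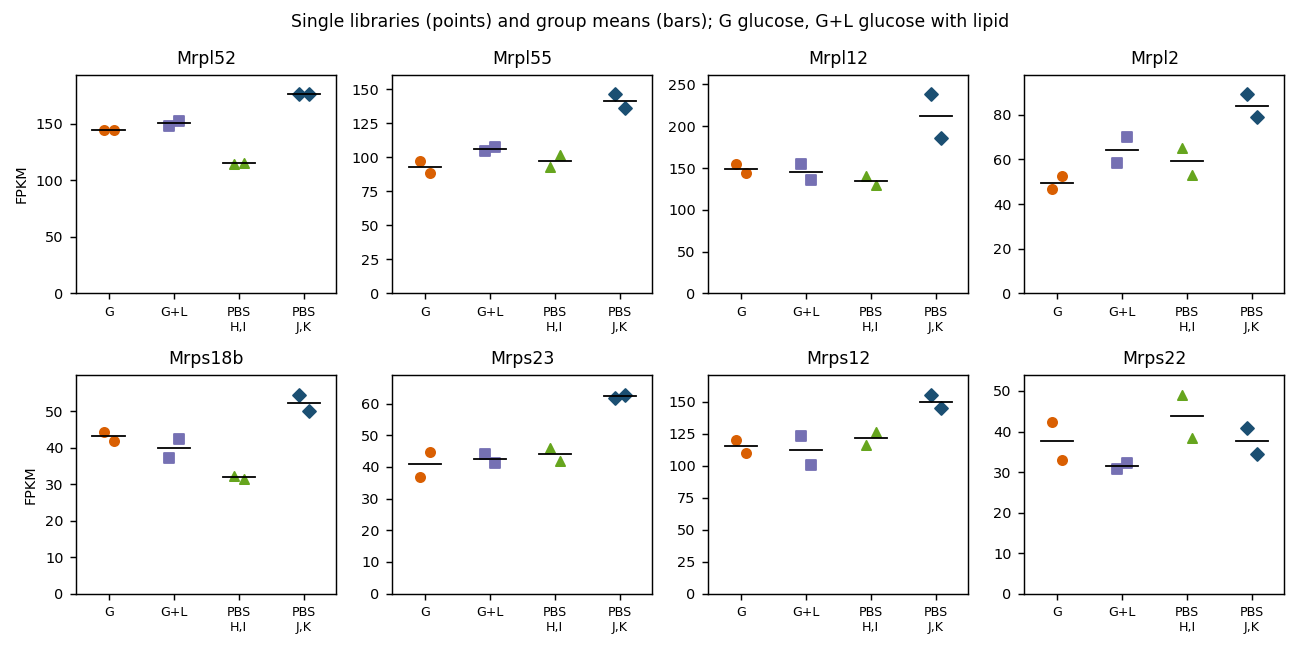
Levels of 8 genes in single libraries. The y axis is FPKM from 0, points are libraries, bars are group means, G is glucose and G+L glucose with lipid. In Mrpl52, Mrpl55, Mrpl12, Mrpl2, Mrps18b, Mrps23 and Mrps12 the PBS J and K points lie above the other 6; in Mrps22 the glucose and PBS points overlap, with glucose plus lipid lowest at 30.7 and 32.3 FPKM.

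Mrpl12, the counterpart of a bacterial ribosome stalk protein and a reported partner of the mitochondrial RNA polymerase in human cells, stood at 154.4 and 144.2 FPKM after glucose, 154.7 and 136.2 after glucose plus lipid, 140.0 and 130.1 in PBS H and I, and 238.1 and 186.0 in PBS J and K. Against J and K the log2 fold change of glucose was -0.49 ± 0.13 (adjusted p = 0.225), and the PBS pair J and K itself spanned a wider range than the other 6 libraries together. Mrps23, a small subunit protein specific to mitochondria, stood at 37.0 and 44.8 FPKM after glucose, 43.9 and 41.2 after glucose plus lipid, 45.9 and 42.0 in PBS H and I, and 61.8 and 62.8 in PBS J and K. Its log2 fold change was -0.60 ± 0.12 (adjusted p = 0.164), and all values outside J and K lay between 37.0 and 45.9 FPKM.

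Mrps12, whose bacterial counterpart lies at the decoding centre, stood at 119.9 and 110.4 FPKM after glucose, 123.1 and 101.0 after glucose plus lipid, 116.1 and 126.8 in PBS H and I, and 155.6 and 144.9 in PBS J and K. Its glucose values did not overlap J and K (log2 fold change -0.38 ± 0.12, adjusted p = 0.247) and did not separate from PBS H and I. Mrpl33 had 361.1 and 379.0 FPKM after glucose, against 427.8 and 419.7 FPKM in PBS J and K (-0.20 ± 0.08, adjusted p = 0.327). Mrpl3 (-0.42), Mrpl11 (-0.36), Mrpl13 (-0.31) and Mrpl41 (-0.45) of the large subunit, and Mrps27 (-0.46), Mrps16 (-0.29) and Mrps34 (-0.21) of the small subunit, also lay below 0, with adjusted p from 0.236 to 0.467.

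A few genes had fold changes at or above 0. Mrpl9, the counterpart of a bacterial large subunit protein, stood at 56.0 and 60.6 FPKM after glucose, against 54.3 and 54.1 FPKM in PBS J and K, a log2 fold change of 0.10 ± 0.17 (adjusted p = 0.826). Mrps18c, Mrps14 and Mrps33 were the other 3 genes above 0, at 0.05, 0.06 and 0.14, with groups that overlapped. Mrps22, specific to mitochondria and mutated in a human mitochondrial disease, averaged 37.6 ± 6.60 FPKM after glucose and 37.6 ± 4.53 FPKM in PBS J and K (SD, n = 2 each).

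The glucose result depended on the control pair. Against PBS H and I the median was 0.03 for large and 0.06 for small subunit genes, against -0.00 for all genes. In that comparison 48 of the 76 genes lay above 0, against 49.5% of all genes. The share was 50.0% among genes with a mean of 10 FPKM or more. At an unadjusted p under 0.05, 4 of the 76 were higher (3.78% of all genes) and 1 was lower (3.55%). In this comparison limma called 0 (0.0754% higher and 0.00838% lower of all genes). Mrpl55 had a log2 fold change of -0.06 ± 0.10 there (adjusted p = 0.931), Mrpl2 -0.24 ± 0.15 (adjusted p = 0.759) and Mrpl12 0.14 ± 0.13 (adjusted p = 0.863). Against all 4 PBS libraries the medians were -0.13 and -0.06.

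**Figure D4:**
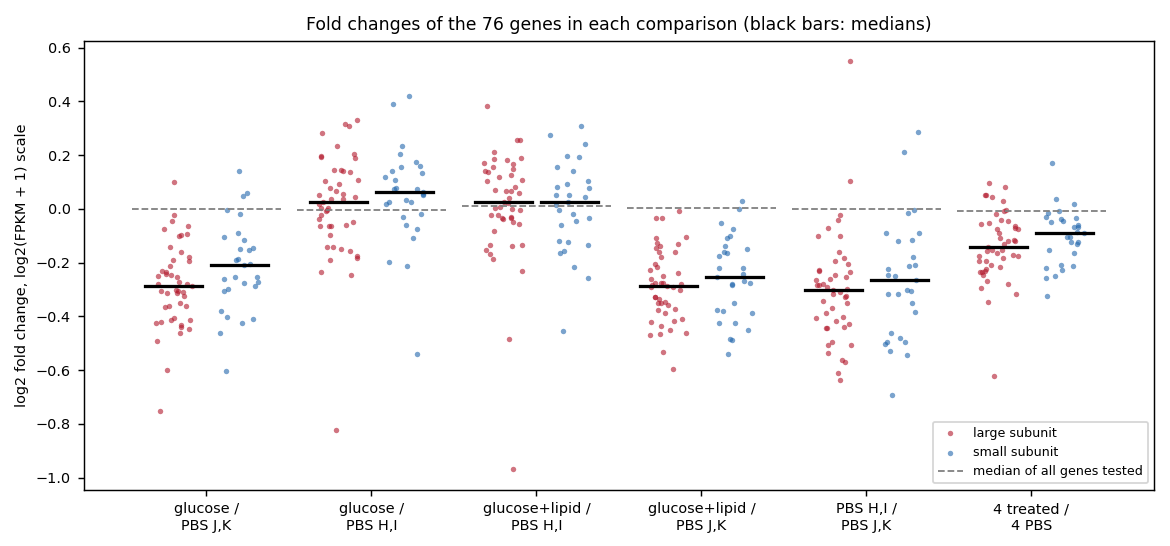
Log2 fold changes of the 76 genes in 6 comparisons. The y axis is the difference of group means of log2(FPKM + 1); each point is a gene, red for large and blue for small subunit, black bars are medians and dashed lines the median of all genes tested. The 3 comparisons with PBS J and K alone as control have medians of -0.21 to -0.30, and the 2 with PBS H and I as control lie between 0.03 and 0.06.

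The PBS pairs, H and I over J and K, got the same injection, and their comparison gives the difference between untreated libraries. The family was lower in PBS H and I. The median log2 fold change was -0.30 for large and -0.27 for small subunit genes, against 0.00 for all genes, and 72 of 76 genes lay below 0, against 49.9% of all genes, or 57.2% of those with a mean of 10 FPKM or more; 50.1% of all genes lay above 0. At an unadjusted p under 0.05, 42 genes were lower (29 large, 13 small), against 9.72% of all genes, and 0 were higher (7.53%). With a mean of 10 FPKM or more, the shares of all genes were 14.5% lower and 7.62% higher. The groups did not overlap in 59 genes lower in PBS H and I, against 25.3% of all genes, and in 2 genes higher, against 24.4%. limma called 0 of 76 genes, against 0.00838% of all genes lower and 0.0419% higher. This comparison and that of glucose share PBS J and K, so their similar medians are not separate observations. Of the 9 tested neutrophil transcripts, 6 lay below 0, with a median of -0.82, and of 5 monocyte and macrophage transcripts, 4 did, with a median of -0.28. The neutrophil sums were 346.6 and 321.8 FPKM in PBS H and I, against 608.0 and 375.9 FPKM in PBS J and K, with Elane at 0 in library K. All 3 megakaryocyte transcripts lay below 0, with a median of -0.56. All 6 erythroid transcripts lay above 0 in this comparison, with a median of 1.36, and limma called 1 of them, the alpha globin gene Hba-a1. The erythroid sums were 603.7 and 618.5 FPKM in PBS H and I, against 545.5 and 275.4 FPKM in PBS J and K. The part of these cells in the result was not tested. The count of 42 was 15 after rescaling to the sum without small RNAs (3.08% of all genes lower), 21 without PBS H (5.64%) and 22 without PBS J (5.61%).

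Mrpl52, specific to mitochondria, had the smallest adjusted p between the PBS pairs. PBS H and I had 114.0 and 115.5 FPKM, against 175.7 and 175.7 FPKM in PBS J and K. The glucose libraries had 144.7 and 144.2 FPKM, and those of glucose plus lipid 147.8 and 152.3. The treated libraries thus lay between the PBS pairs, with no overlap among treated, H and I, and J and K. PBS H and I had a log2 fold change of -0.61 ± 0.08 against J and K (adjusted p = 0.0792). Mrps18b, of the small subunit, showed the same order with 44.3 and 41.9 FPKM after glucose, 37.3 and 42.3 after glucose plus lipid, 32.4 and 31.4 in PBS H and I, and 54.5 and 50.0 in PBS J and K (PBS H and I against J and K, -0.69 ± 0.11, adjusted p = 0.0985).

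Mrps28 had -0.53 ± 0.09 in the same comparison (adjusted p = 0.0985), at 103.9 ± 6.28 FPKM in PBS H and I, against 150.2 ± 2.93 FPKM in PBS J and K (SD, n = 2 each). Mrpl55 had -0.54 ± 0.10 (adjusted p = 0.10), and Mrpl16, counterpart of a bacterial protein near the peptidyl transferase centre, -0.56 ± 0.11 (adjusted p = 0.105). Mrpl12 had -0.64 ± 0.13 (adjusted p = 0.120) and Mrpl47 -0.57 ± 0.19 (adjusted p = 0.209). The genes on the other side were few. Mrps36, with 5.08 and 5.15 FPKM in PBS H and I, against 3.60 and 4.46 FPKM in PBS J and K, had 0.29 ± 0.19 (adjusted p = 0.501), and Mrpl23, near the limit of detection, was the other gene with separated groups.

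Over all 8 libraries, PBS J and K formed the upper edge of the family. Both exceeded each of the other 6 libraries in 45 of the 76 genes (31 large, 14 small), against 12.0% of all genes and 17.2% of genes with a mean of 10 FPKM or more. The count was 47 without library H of glucose plus lipid (13.8% of all genes) and 35 after rescaling to the sum without small RNAs (7.76% of all genes); both alternatives were chosen after seeing the data. Library J was the highest of the 8 in 47 genes and library K in 17. The other 6 libraries were the highest in 0 to 4 genes each.

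The summed level of the 76 genes was 5963 and 6053 FPKM after glucose, 5810 and 6104 after glucose plus lipid, 5679 and 5935 in PBS H and I, and 7555 and 7004 in PBS J and K. As a share of FPKM without small RNAs this was 1.17% and 1.20% after glucose, 0.981% and 1.21% after glucose plus lipid, 1.16% and 1.20% in PBS H and I, and 1.40% and 1.34% in PBS J and K. The low share in library H of glucose plus lipid went with its 65917 FPKM of neutrophil transcripts, whose part in it was not tested. PBS J and K were the highest libraries on both scales. Within these bulk samples, fewer cells of a type with high levels and less RNA per cell cannot be told apart.

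**Figure D5:**
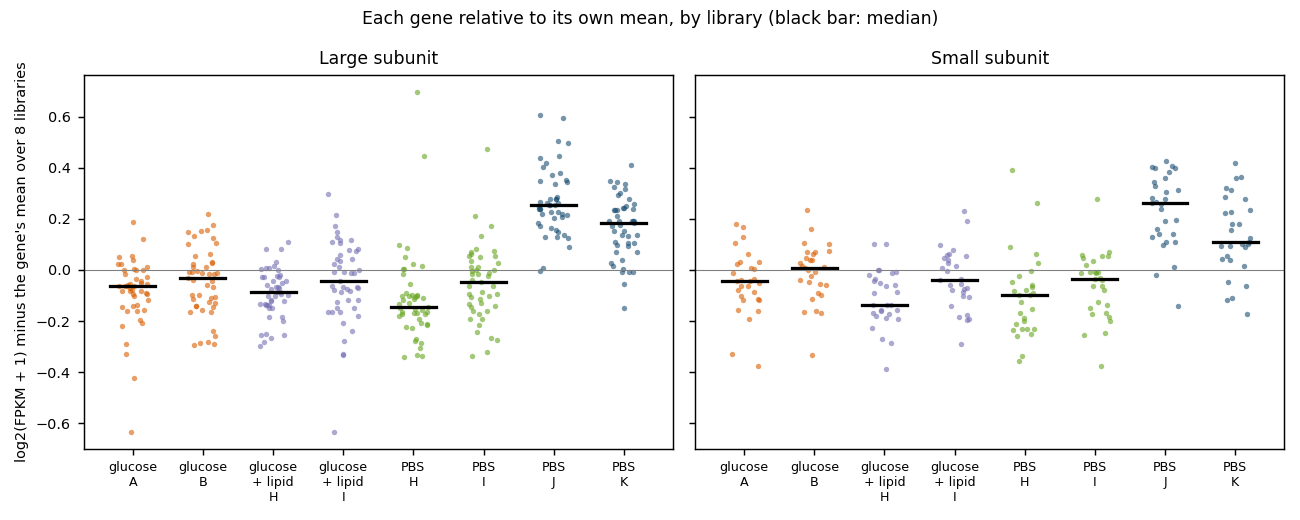
Each gene relative to its own mean over the 8 libraries. The y axis is the difference in log2(FPKM + 1); points are genes and black bars the median of each library, with large subunit genes on the left panel and small subunit genes on the right. Over all 76 genes the medians were -0.06 and -0.01 for glucose, -0.09 and -0.04 for glucose plus lipid, -0.13 and -0.04 for PBS H and I, and 0.25 and 0.16 for PBS J and K.

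The comparison of glucose plus lipid with PBS H and I asks what the lipid emulsion together with glucose does. Here the family showed no common direction. The median log2 fold change was 0.03 for both large and small subunit genes, against 0.01 for all genes, with 44 of 76 genes above 0, against 51.7% of all genes and 51.8% of those with a mean of 10 FPKM or more. At an unadjusted p under 0.05, 5 genes were higher, against 5.87% of all genes, and 3 were lower, against 5.93%. With a mean of 10 FPKM or more, the shares of all genes were 6.45% and 6.83%. The groups did not overlap in 19 genes higher (22.2% of all genes) and 13 lower (21.8%), shares near the background. limma called 0 of 76 genes, against 0.0587% of all genes higher and 0.0168% lower, and 0 without the trend. All 9 tested neutrophil transcripts (median 3.84) and all 6 erythroid ones (median 1.15) lay above 0 in this comparison. The neutrophil sums, with Mmp8, were 65917 and 289.9 FPKM in libraries H and I of glucose plus lipid. They were 346.6 and 321.8 FPKM in PBS H and I, so the sum was higher in library H only. The erythroid sums were 1978 and 1189.7 FPKM after glucose plus lipid, against 603.7 and 618.5 FPKM in PBS H and I. In library I of glucose plus lipid, Hba-a1 (667.8 FPKM), Hbb-b1 (424.9) and Alas2 (13.8) exceeded both PBS values. Hba-a2 (18.9 FPKM, against 48.9 and 83.8) and Hbb-b2 (62.6, against 85.6 and 102.8) lay below both there. Klf1 (1.76 FPKM) lay between its PBS values of 1.07 and 4.87. The part of these cells in the result was not tested. Without library H of glucose plus lipid, the medians of the family were 0.07 and 0.07, with 4 genes higher at an unadjusted p under 0.05 (5.44% of all genes) and 2 lower (5.67%). Without library I of that group, 1 gene was higher (7.96%) and 1 lower (4.21%). Without PBS H, 1 was higher (3.27%) and 0 lower (3.39%), and without PBS I, 2 were higher (3.71%) and 2 lower (3.29%).

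Among genes higher after glucose plus lipid, Mrpl52 had the largest separated difference, 0.38 ± 0.08 (adjusted p = 0.216). Mrps18b had 0.31 ± 0.11 (adjusted p = 0.356). Mrps26, a mitochondria-specific small subunit protein, stood at 87.3 and 85.8 FPKM after glucose plus lipid, against 72.2 and 70.7 FPKM in PBS H and I (0.27 ± 0.10, adjusted p = 0.364), and at 75.7 and 75.1 after glucose. Glucose plus lipid lay above glucose and PBS H and I without overlap, and overlapped PBS J and K, at 100.6 and 86.7 FPKM. Mrpl48 had 0.26 ± 0.11 (adjusted p = 0.408).

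In the other direction, Mrps22 stood at 30.7 and 32.3 FPKM after glucose plus lipid, against 49.1 and 38.5 FPKM in PBS H and I (-0.45 ± 0.17, adjusted p = 0.369), and all glucose and PBS libraries lay above both of these values. Mrpl1, counterpart of the bacterial protein of the stalk by which tRNA leaves, stood at 18.8 and 17.7 FPKM, against 31.1 and 21.5 FPKM in PBS H and I (-0.48 ± 0.20, adjusted p = 0.401). It too was lower than in any other library, the nearest being glucose B at 20.0 FPKM. Mrpl21 (-0.23 ± 0.13) and Mrps36 (-0.26 ± 0.19) had adjusted p of 0.539 and 0.649. Mrps18c, the counterpart of a bacterial small subunit protein, averaged 189.7 ± 1.62 FPKM after glucose plus lipid and 220.6 ± 10.6 FPKM in PBS H and I (SD, n = 2 each; adjusted p = 0.603).

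With PBS J and K as controls, glucose plus lipid had medians of -0.29 for large and -0.25 for small subunit genes. Here 35 genes were lower at an unadjusted p under 0.05, against 9.08% of all genes. Among genes with a mean of 10 FPKM or more, the share was 13.1%. Without library H of glucose plus lipid, an alternative chosen after seeing the data, the medians were -0.26 and -0.22, and 17 genes were lower, against 7.73% of all genes. limma again called 0 of 76 genes, against 0.00838% of all genes lower and 0.226% higher. Mrpl16 had the lowest log2 fold change of the 76 genes, -0.60 ± 0.11 (adjusted p = 0.0917). It averaged 50.8 ± 4.02 FPKM after glucose plus lipid, against 77.2 ± 1.17 FPKM in PBS J and K (SD, n = 2 each).

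Whether the treatments differ was tested directly, as the effect of glucose plus lipid over PBS H and I minus the effect of glucose over PBS J and K. The median of this difference was 0.33 for large and 0.23 for small subunit genes, against 0.03 for all genes, and 67 of 76 genes lay above 0, against 53.3% of all genes, or 59.1% of those with a mean of 10 FPKM or more. At an unadjusted p under 0.05, 22 genes were higher, against 6.03% of all genes, and 0 lower (6.18%), or 8.35% and 6.64% of genes with a mean of 10 FPKM or more. limma called 0 of 76 genes, against 0.00838% of all genes in each direction. Mrpl52 (0.66 ± 0.12) and Mrpl55 (0.73 ± 0.14) had the smallest adjusted p, 0.238 each, and Mrpl2 the largest difference, 0.87 ± 0.21 (adjusted p = 0.295). Mrps22 (-0.45 ± 0.24) and Mrpl1 (-0.41 ± 0.28) were largest on the other side among genes with a mean of 3 FPKM or more, with adjusted p of 0.492 and 0.577. The count of 22 was 27 without library H of glucose plus lipid (5.12% of all genes higher), with medians of 0.39 and 0.22. It was 3, with 1 gene lower, after rescaling to the sum without small RNAs (0.972% of all genes higher and 11.1% lower), a scaling that moved the median of all genes to -0.16 in this comparison, with family medians of 0.13 and 0.02. Treatment and control pair change together in this difference, so a treatment effect and a difference between the PBS pairs cannot be told apart in it.

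The 4 treated libraries were also set against the 4 PBS libraries in a fit that holds each treatment and its PBS pair as a block and so removes a shift common to a treatment and its PBS pair. The median was -0.14 for large and -0.09 for small subunit genes, against -0.01 for all genes. Of the 76 genes, 67 lay below 0, against 51.3% of all genes, or 57.2% of those with a mean of 10 FPKM or more. At an unadjusted p under 0.05, 7 genes were lower (5 large, 2 small), against 5.22% of all genes, and 0 were higher, against 6.18%. With a mean of 10 FPKM or more, the shares of all genes were 6.78% lower and 5.83% higher. limma called 0 of 76 genes, against 0.268% of all genes higher and 0.00% lower. Without PBS J the medians were -0.07 and -0.03, and 3 genes were lower at an unadjusted p under 0.05, against 3.18% of all genes. That count was 13 without PBS H (4.05%) or without library I of glucose plus lipid (4.10%), 4 without glucose B (3.24%), and 11 after rescaling to the sum without small RNAs (7.38%). Without library H of glucose plus lipid it was 7 (6.43%), with medians of -0.16 and -0.10.

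In 4 genes every treated library lay below every PBS library, against 2.84% of all genes, and all 4 are of the large subunit. Mrpl21, the counterpart of a bacterial protein, stood at 28.5 and 29.9 FPKM after glucose, 27.0 and 31.6 after glucose plus lipid, 31.8 and 37.4 in PBS H and I, and 42.2 and 39.0 in PBS J and K. The gap between the highest treated and the lowest PBS value was small, 31.6 against 31.8 FPKM. Its log2 fold change was -0.35 ± 0.10 (adjusted p = 0.295). Mrpl42 had 201.5 and 206.3 FPKM after glucose, 189.0 and 218.6 after glucose plus lipid, 222.8 and 229.9 in PBS H and I, and 263.9 and 287.2 in PBS J and K (-0.29 ± 0.09, adjusted p = 0.321).

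Mrpl18, the counterpart of a bacterial large subunit protein, averaged 160.1 ± 14.9 FPKM in treated and 192.9 ± 13.1 FPKM in PBS libraries (SD, n = 4 each; -0.27 ± 0.09, adjusted p = 0.347). Its highest treated value, 178.0 FPKM in glucose A, nearly reached its lowest PBS value, 178.3 FPKM in PBS H. Exons of Mrpl18 overlap those of Tcp1 on the opposite strand, and exons of Mrpl21 overlap those of Ighmbp2. Mrpl50, specific to mitochondria, averaged 36.6 ± 1.14 FPKM in treated and 40.9 ± 0.831 FPKM in PBS libraries (SD, n = 4 each; -0.16 ± 0.07, adjusted p = 0.463). Unlike most of the family, Mrpl50 did not separate the PBS pairs, at 41.5 and 39.7 FPKM in H and I and 41.2 and 41.4 FPKM in J and K.

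The family was also split by origin and by structure. In glucose against PBS J and K, the median was -0.31 for the 30 large subunit genes with bacterial counterparts and -0.21 for the 17 specific to mitochondria. In the small subunit it was -0.20 for 16 conserved genes and -0.23 for 12 mitochondria-specific genes. In treated against PBS libraries the medians were -0.17 and -0.06 for these large subunit classes, and -0.10 and -0.06 for the small subunit ones; the differences between classes were not tested. Structures of the mammalian mitochondrial ribosome place the products of Mrps18a and Mrps30 in the large subunit. Counting by structure (49 large, 26 small, Mrps36 in neither) gave medians of -0.28 and -0.21. Mrps30, with 57.9 and 61.2 FPKM after glucose, 60.6 and 61.0 after glucose plus lipid, 57.1 and 63.5 in PBS H and I, and 60.2 and 68.2 in PBS J and K, was among the steadiest genes; Mrps18a had -0.25 ± 0.14 in glucose against PBS J and K (adjusted p = 0.451).

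Genes with and without a CCGGAAG promoter match, 24 and 43, had medians of -0.28 and -0.25 in glucose against PBS J and K, 0.05 and 0.03 in glucose plus lipid against PBS H and I, and -0.29 and -0.30 between the PBS pairs. For any of the 3 motifs, the 39 genes with and 28 without a match had medians of -0.28 and -0.25 in the first comparison. They had 0.07 and -0.01 in the second, and -0.30 and -0.25 between the PBS pairs. Mrpl52 with 2 CCGGAAG matches and Mrpl55 with none of the 3 motifs had -0.61 and -0.54 between the PBS pairs. Both were named for large differences, so their similar values do not bear on the motifs. The 15 distinct tested partners that start next to a mitochondrial ribosomal gene had a median of -0.17 in glucose against PBS J and K, with 10 of 15 below 0, and of -0.05 between the PBS pairs, also with 10 below 0.

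Other genes of mitochondrial translation and respiration gave a setting for these values. The 8 other subunits, among them Dap3, Chchd1, Aurkaip1, Gadd45gip1 and the release factor homologue Ict1, had a median of -0.25 in glucose against PBS J and K, 0.01 in glucose plus lipid against PBS H and I, and -0.26 between the PBS pairs. Ict1 stood at 65.8 and 59.8 FPKM after glucose, 55.8 and 50.0 after glucose plus lipid, 41.2 and 47.5 in PBS H and I, and 78.7 and 78.1 in PBS J and K (PBS H and I against J and K, -0.81 ± 0.12, adjusted p = 0.0920). Ptcd3, a pentatricopeptide repeat protein of the small subunit, stood at 46.5 and 36.6 FPKM after glucose plus lipid, against 68.8 and 72.7 FPKM in PBS H and I (-0.76 ± 0.19, adjusted p = 0.242).

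In the same 3 comparisons, 75 oxidative phosphorylation subunits had medians of -0.24, 0.02 and -0.26, and 25 genes of protein import had -0.29, -0.01 and -0.32. The 27 genes of assembly and ribosomal RNA modification had -0.12, -0.03 and -0.15. The 12 translation factors had -0.22, -0.19 and -0.13, the 17 aminoacyl-tRNA synthetases -0.26, -0.09 and -0.02, and 11 genes of mitochondrial DNA transcription and stability -0.12, -0.20 and -0.03. The 77 cytosolic ribosomal protein genes had -0.05, 0.09 and -0.27. Both PBS J and K exceeded the other 6 libraries in 47 of the 75 oxidative phosphorylation genes, 13 of the 25 import genes and 16 of the 77 cytosolic ribosomal protein genes, against 12.0% of all genes and 17.2% of those with a mean of 10 FPKM or more. No gene of any of these lists passed in limma in any of the 3 comparisons.

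Regulators of mitochondrial biogenesis had a median of -0.25 over 9 tested genes in glucose against PBS J and K. Single genes differed, with Pprc1 at -0.57 ± 0.13 (limma adjusted p = 0.204) and Gabpb1 at 0.05 ± 0.10 (adjusted p = 0.875). Between the PBS pairs, H and I over J and K, these 2 genes had -0.55 and 0.24. Nrf1, a transcription factor of nuclear genes for respiration, stood at 27.9 and 34.4 FPKM after glucose, against 35.1 and 39.1 FPKM in PBS J and K (-0.25 ± 0.14, adjusted p = 0.461). Its values were 34.4 and 30.2 FPKM after glucose plus lipid, and 30.5 and 34.3 FPKM in PBS H and I. Myc stood at 260.1 and 274.4 FPKM after glucose, 227.5 and 243.9 after glucose plus lipid, 273.9 and 256.2 in PBS H and I, and 335.1 and 308.4 in PBS J and K (glucose against J and K, -0.27 ± 0.09, adjusted p = 0.267). Gabpa, an ETS family factor, had -0.06 ± 0.14 in that comparison (adjusted p = 0.877) and 13.2 to 17.0 FPKM over the 8 libraries.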

How the data were processed

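LSK cells were sequenced in 8 RNA libraries (SMART-Seq HT and Nextera XT, per the labels). The submitters' processing notes name TopHat2 2.0.13, Bowtie2 2.2.3, SAMtools 1.0, Cuffnorm 2.2.1 and mm10. The authors deposited FPKM; the files carry no unit, which was inferred from the values and from Cuffnorm. Which annotation and which Cuffnorm normalisation were used is not given in the sources used here. Values were taken to log2(FPKM + 1), which understates fold changes of low genes. Genes with 1 FPKM in 2 libraries entered limma 3.58.1 (R 4.3.3) with a mean-variance trend. The 4 groups shared 1 fit, with 4 residual and 3.73 prior degrees of freedom, and the fit of treated against PBS libraries had 5 and 3.86. The 2-sided p-values were adjusted over 11931 genes (Benjamini-Hochberg, threshold 0.05). The procedure was tested on simulated data. A few marker genes are not reported here and enter no sum or median of a marker list.

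Members, lists and rules were chosen with earlier results of these data known. The naming rule took, for each direction of a comparison, the 4 most different genes by log2 fold change, given a mean of 3 FPKM or more and groups that did not overlap, the 3 highest and 3 lowest genes of each subunit by mean, and 21 genes whatever their values. Mrpl16 and Mrps28 fell outside it and were named after their values were seen; Mrpl32, Mrpl46, Mrpl49 and Mrps11 were named for their position alone. Positions came from GENCODE vM21, which held all 76 symbols, and promoters from RefSeq. Depth was estimated from the value of 1 fragment in genes with a single protein-coding transcript, and no counting interval was drawn from it. The alternatives changed the pseudocount, level filter, scaling, trend, libraries fitted, controls, block and subunit assignment, and left out each library. Python 3.11.15 with numpy 2.4.6, pandas 2.3.3 and matplotlib 3.10.9 drew the figures.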

Additional observations from a re-analysis of the deposited data

Results flagged for a closer look

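Of 86 checks, on each of 42 named genes and on the summed level over the 4 PBS and over the 4 treated libraries, 6 had a library whose gap to its nearest neighbour took an unusually large share of the range by Dixon's 95% criterion. Chance flags about 1 in 20 such groups. Among treated libraries these were Mrpl28 (share 0.8578), with glucose B lowest at 170.8 FPKM, Mrpl37 (0.8685), with glucose B highest at 83.2 FPKM, and Mrpl45 (0.9003), with library I of glucose plus lipid highest at 41.0 FPKM. Among PBS libraries these were Mrpl44 (0.9206), with library J highest at 80.1 FPKM, Mrps2 (0.8713), with library J highest at 77.9 FPKM, and Mrpl50 (0.8403), with library I lowest at 39.7 FPKM.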

How the results depend on the processing

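limma called 0 of the 76 genes in each of the 5 comparisons under every alternative run, and over the 42 named genes the lowest adjusted p was 0.0627; of their 3523 alternative values, 188 had another sign. Medians are given for the large, then the small subunit. Against PBS H and I, glucose had 0.027 and 0.064, and against all 4 PBS libraries -0.13 and -0.064. Glucose plus lipid had -0.29 and -0.25 against PBS J and K, and -0.14 and -0.12 against all 4. Rescaling to the sum without small RNAs gave -0.24 and -0.14 for glucose, -0.12 and -0.12 for glucose plus lipid, 0.13 and 0.024 for the difference of effects, and -0.20 and -0.16 between the PBS pairs; the median of all genes was then -0.12 for glucose plus lipid and -0.16 for the difference. Leaving out 1 library gave -0.33 to -0.22 and -0.24 to -0.17 for glucose, -0.027 to 0.071 and -0.032 to 0.069 for glucose plus lipid, 0.28 to 0.39 and 0.12 to 0.28 for the difference, -0.34 to -0.26 and -0.37 to -0.21 between the PBS pairs, and -0.18 to -0.067 and -0.16 to -0.028 for treated libraries. The cause of these shifts was not tested. With the letters H and I as a replicate block, glucose plus lipid kept medians of 0.03 and 0.03, and 6 genes in place of 8 had an unadjusted p under 0.05. Of these, 3 were higher, against 6.35% of all genes, and 3 lower, against 5.79%. The H minus I deviations of the 2 groups correlated at r = 0.066 over all genes and 0.15 over the 76, and whether the letters pair the libraries is not known. The other alternatives moved each median by less than the spread between replicates. With 2 libraries a group and depth known by estimate only, a p that misses the threshold does not show that a gene was unaltered.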
